A study of Mus musculus with 8 samples.

Results

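Slc6a3 and Slc18a2, the genes of the plasma membrane dopamine transporter and of the vesicular monoamine transporter of neurons, were followed through single-nucleus RNA sequencing of the adult mouse midbrain. They are 2 of the 23481 genes in the count table and were chosen by name, with earlier results of these data known. Both were read in the nuclei that carried at least 2 UMIs of Ddc per 10000 and at least 5000 UMIs in all, called Ddc nuclei here, and in the remaining nuclei. A UMI is a molecular barcode that counts 1 captured transcript, and Ddc encodes the decarboxylase that makes dopamine from L-DOPA.

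All mice were of the strain DatCreEed, aged 8 months, and the labels give the genotypes wt and PRC2 mutant and the cell type mDA, the midbrain dopaminergic neurons. The strain name joins the dopamine transporter Cre driver with Eed, a core subunit of Polycomb repressive complex 2 (PRC2), the enzyme that marks silenced genes on histone H3. The sources used here do not say whether the wt mice carried the Cre allele. For Slc6a3, whose locus drives Cre in lines of this name, an effect of the Cre allele and the loss of PRC2 cannot be told apart. Each genotype is 1 library from nuclei of 2 females and 1 male pooled, sequenced on 4 lanes, so there was no replicate. No test was run, the 95% intervals cover the error of counting alone, and genotype and library cannot be told apart.

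Dopamine is made in the cytosol, pumped into synaptic vesicles by the vesicular monoamine transporter in exchange for protons, released, and taken back into the neuron by the dopamine transporter together with sodium and chloride. The vesicular transporter also serves serotonin, noradrenaline and histamine neurons, whereas the dopamine transporter marks dopamine neurons. Within the midbrain, dopamine neurons of the substantia nigra are known to carry more dopamine transporter than many neurons of the ventral tegmental area.

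In GENCODE M21 of mm10, Slc6a3 (ENSMUSG00000021609.6) lies on the plus strand at chr13:73536747-73578672 with 15 exons, and no other annotated gene overlaps it. Slc18a2 (ENSMUSG00000025094.8) lies on the plus strand at chr19:59260896-59296012 with 16 exons in its longest protein-coding model. The antisense gene Gm29261 overlaps Slc18a2 on the minus strand, and the sources used here do not give the strand setting of the counting. The 250 bases upstream of each RefSeq start site (GRCm38.p6, plus strand, 5′ to 3′) are shown because both genes were lower in the mutant library by a similar factor. Capitals mark matches to GGGCGG, the GC box bound by Sp-family factors, on either strand.
Slc6a3, chr13:73536497-73536746: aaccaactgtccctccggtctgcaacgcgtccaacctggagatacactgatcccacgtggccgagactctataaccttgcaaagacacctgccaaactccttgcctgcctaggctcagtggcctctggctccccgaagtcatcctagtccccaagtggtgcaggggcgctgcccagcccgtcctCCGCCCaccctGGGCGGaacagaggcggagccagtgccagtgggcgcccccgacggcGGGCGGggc
Slc18a2, chr19:59260628-59260877: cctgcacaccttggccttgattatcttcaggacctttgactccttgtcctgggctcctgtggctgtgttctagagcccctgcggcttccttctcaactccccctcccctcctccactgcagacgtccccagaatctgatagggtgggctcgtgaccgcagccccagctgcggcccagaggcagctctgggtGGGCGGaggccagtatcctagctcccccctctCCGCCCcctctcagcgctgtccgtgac
The Slc6a3 window held 3 GC boxes and the Slc18a2 window 2, and 32.7% of the 32841 RefSeq windows of this length hold at least 1. Neither window held the nuclear receptor half-site AGGTCA, found in 14.03% of all windows, the bicoid-type homeobox site TAATCC, in 6.25%, the homeobox core TAATTA, in 4.84%, or the cyclic AMP response element TGACGTCA, in 1.55%. Both strands were searched. The windows held 16 CpG dinucleotides for Slc6a3 and 9 for Slc18a2, at 66% and 64% G and C. The Slc6a3 count exceeded that of 74.6% of all windows and the Slc18a2 count that of 59.7%. A match is a string in the sequence and no evidence of binding.

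The wt library held 1261 Ddc nuclei of 1772 (71.2%) with 39419691 UMIs, and the mutant library 2887 of 3968 (72.8%) with 70681169 UMIs. The median depth was 25270 UMIs in wt and 19509 UMIs in mutant Ddc nuclei, and 4 barcodes occurred in both libraries. Eed read 21.4 CPM (UMIs per 1000000) in wt and 40.97 CPM in mutant Ddc nuclei. The position of these 3' tags against the deleted part is not known from the sources used here, so they check no label. Hoxc4, a Hox gene normally silent in the midbrain, had 1 UMI in wt and 8176 UMIs in mutant Ddc nuclei, and Pax3, a developmental paired-box factor, 5 and 6882 UMIs. The labelled cell type was checked on Th and Nr4a2, a transcription factor of dopamine neurons: 88.3% of wt and 69.9% of mutant Ddc nuclei had a Th UMI, and 83.3% and 70.3% a Nr4a2 UMI. These shares were not taken at equal depth. With each nucleus thinned at random to 2000 UMIs, Th was found in 29.1% of wt (26.6 to 31.7) and 14.6% of mutant nuclei (13.3 to 15.9). For Nr4a2 these shares were 17.7% (15.6 to 19.9) and 15.6% (14.3 to 17.0). Of 8 GABA neuron markers, 5 were at least 1.5-fold higher in mutant Ddc nuclei, where 1.97% of all 16368 genes with at least 50 UMIs were, and their summed level was 80.0 CPM in wt and 261 CPM in mutant. The summed oligodendrocyte markers read 203 CPM in wt and 171 CPM in mutant, and the astrocyte markers 246 and 297 CPM; no glial or vascular marker was at 0. Summed glutamate markers read 33.3 and 68.1 CPM, and summed serotonin and noradrenaline markers, whose neurons also use Slc18a2, 3.501 and 17.1 CPM. The part of these differences in the transporter values was not tested, except where nuclei with glial tags were left out, which left both genes lower in the mutant.

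Both transporters were lower in the mutant library by a similar factor. Slc6a3 had 19198 UMIs in wt Ddc nuclei, or 487 CPM (480 to 494), and 12986 UMIs in mutant Ddc nuclei, or 184 CPM (181 to 187). Its level was thus 2.65-fold lower in the mutant (2.59 to 2.71). Slc18a2 had 30313 UMIs in wt, or 769 CPM (760 to 778), and 20894 UMIs in mutant, or 296 CPM (292 to 300), which is 2.60-fold lower (2.56 to 2.65). The wt and mutant counting intervals of each gene lay far apart. Counted with a pseudocount of 5 CPM among the 16368 genes with at least 50 UMIs, both were past 2-fold lower, where 49 genes (0.299%) stood; with a pseudocount of 1 CPM 146 genes stood there. By size of decrease with 5 CPM added, Slc6a3 ranked 15th and Slc18a2 17th.

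In single nuclei the lower levels took the form of a shift of most of the distribution. The median wt Ddc nucleus had 4.36 Slc6a3 UMIs per 10000 (lowest 0, highest 22.8), and the median mutant nucleus 1.32 (0 to 17.5). For Slc18a2 the medians were 7.54 per 10000 in wt (0 to 22.7) and 2.69 in mutant (0 to 18.1). The ranges overlapped completely at the low end, yet 88.8% of mutant nuclei lay under the wt median of Slc6a3 and 94.9% under that of Slc18a2. Above the wt upper quartile were 111 mutant nuclei (3.84%) for Slc6a3 and 56 (1.94%) for Slc18a2.

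The ratio of wt to mutant was smaller toward the top of each distribution. The gap in UMIs per 10000 was wider at the upper quartile than at the lower quartile or the 99th percentile. At the lower quartile the wt value was 4.23 times the mutant value for Slc6a3 and 3.16 times for Slc18a2. At the upper quartile these ratios were 2.49 and 2.39, and at the 99th percentile 1.41 and 1.47. The Slc6a3 values behind these ratios were 0.381 in mutant and 1.61 in wt at the lower quartile, and 9.05 and 12.8 at the 99th percentile. For Slc18a2 they were 1.56 and 4.91 at the lower quartile, and 11.3 and 16.7 at the 99th percentile. At the upper quartile the mutant and wt values were 2.68 and 6.70 for Slc6a3, and 4.17 and 9.97 for Slc18a2. The gap was thus wider at the 99th percentile than at the lower quartile for both genes, and wider still at the upper quartile.

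**Figure D1:**
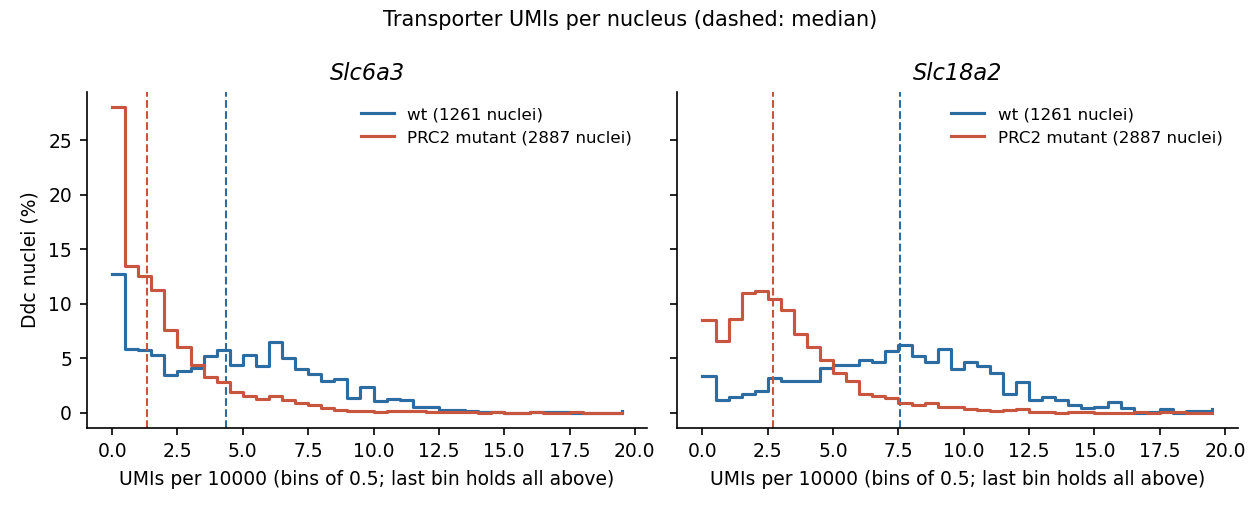
Share of Ddc nuclei (vertical axis, %) by UMIs per 10000 of Slc6a3 (left) and Slc18a2 (right) in the wt (blue, 1261 nuclei) and PRC2 mutant (red, 2887 nuclei) libraries; dashed lines are medians. The mutant medians of 1.32 and 2.69 sit left of the wt medians of 4.36 and 7.54, and the wt Slc6a3 distribution has a peak in its lowest bin.

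Nuclei without a transporter tag were more frequent in the mutant, also at equal depth. With all UMIs, 9.99% of wt and 22.6% of mutant Ddc nuclei had 0 UMIs of Slc6a3, and 2.78% and 7.14% had 0 of Slc18a2. After each nucleus was thinned at random to 5000 UMIs, 75.8% of wt (73.4 to 78.2) and 50.02% of mutant nuclei (48.2 to 51.9) kept a Slc6a3 tag. For Slc18a2 the shares were 91.4% (89.7 to 92.8) and 71.1% (69.4 to 72.7). At this depth the variance over the mean of the tags was 1.87 in wt and 1.93 in mutant for Slc6a3, and 1.71 and 1.55 for Slc18a2, so every value exceeded the 1 expected of counting alone.

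Taken jointly at 5000 UMIs, 72.7% of wt Ddc nuclei (70.2 to 75.2) and 38.1% of mutant nuclei (36.3 to 39.9) had tags of both transporters. Nuclei with neither made up 5.55% (4.35 to 6.96) of the wt and 17.0% (15.6 to 18.4) of the mutant nuclei. Nuclei with Slc18a2 alone made up 18.6% of the wt and 33.0% of the mutant nuclei, and nuclei with Slc6a3 alone 3.09% and 11.95%. At these tag numbers a nucleus can miss a transcript it holds, so a state is a count of tags and not of expression.

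**Figure D2:**
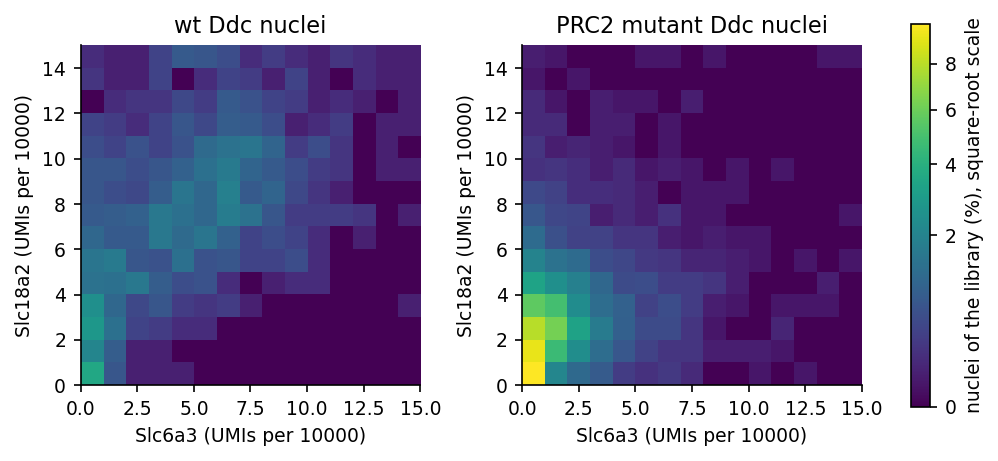
Share of Ddc nuclei (colour, % of the library, square-root scale) by Slc6a3 (horizontal) and Slc18a2 (vertical) in UMIs per 10000, in steps of 1, with the last step holding all higher nuclei. Wt nuclei spread along a diagonal, whereas mutant nuclei crowd toward the origin, where 9.98% of mutant and 3.57% of wt nuclei had under 1 per 10000 of both.

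Levels of the transporters were positively related across nuclei, with a higher coefficient in wt. Pearson's r of log(1 + UMIs per 10000) was 0.59 over the 1261 wt and 0.25 over the 2887 mutant nuclei. The nuclei of a library share its depth and its free RNA, so r describes these libraries and carries no p-value. At 5000 UMIs r was 0.38 in wt and 0.14 in mutant. The value of r moves with the number of tags: wt nuclei thinned to 1900 UMIs, with mean tags of 0.868 for Slc6a3 and 1.42 for Slc18a2 against 0.979 and 1.57 in mutant nuclei at 5000, gave 0.16. At these similar tag numbers, a little lower in wt for both genes, r was thus 0.16 in wt and 0.14 in mutant.

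The same coupling shows in steps. Across wt nuclei with 0, 1, 2 to 3 and at least 4 Slc6a3 tags, Slc18a2 averaged 4.96, 6.62, 8.61 and 9.38 per 10000. Across mutant nuclei it averaged 2.77, 3.39, 3.41 and 4.31. Within each step the mutant mean stayed under the wt mean. Mutant nuclei with at least 4 Slc6a3 tags, at 4.31 (3.87 to 4.79), stayed under wt nuclei with 0, at 4.96 (4.62 to 5.33). These separate intervals overlapped, which does not show equal levels. In the other direction Slc6a3 rose from 1.12 to 5.66 per 10000 over the Slc18a2 steps in wt and from 1.52 to 2.67 in mutant. Among wt nuclei with 0 Slc18a2 tags, Slc6a3 averaged 1.12 (0.856 to 1.44), below the 1.52 (1.40 to 1.64) of mutant nuclei with none.

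Both transporters also followed Ddc, the gene that chose the nuclei. At 5000 UMIs, r with Ddc was 0.34 for Slc6a3 and 0.30 for Slc18a2 in wt, and 0.15 for both in mutant. Th, the rate-limiting enzyme of dopamine synthesis, gave 0.13 and 0.18 in wt and 0.04 and 0.10 in mutant. Among 4210 genes with a mean of at least 0.2 tags in wt, Slc6a3 was most like Hdac9, a class II histone deacetylase (r = 0.53), Rgs6, a regulator of G protein signalling (0.49), Col25a1, a membrane collagen (0.48), Gpr158, an orphan receptor (0.48), and Kcnj6, the GIRK2 potassium channel (0.47). Hdac9 and Rgs6 also ranked 1st and 2nd for Slc6a3 in the mutant (0.28 and 0.27), while Kcnj6 was 70th (0.12). Slc18a2 was most like Erc2, an active zone scaffold (0.42), Kcnd3, a potassium channel (0.39), Nrxn3, a presynaptic adhesion protein (0.39), Slc6a3 (0.38) and Syt1, the calcium sensor of release (0.38). In the mutant Erc2 stayed 1st for Slc18a2 (0.20), Slc6a3 was 11th (0.14) and Kcnd3 160th (0.06). All these values rise with the level of a gene, as the thinning shows, and are descriptions.

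Subtypes of dopamine neuron were read from Sox6, a transcription factor of ventral nigral neurons, Calb1, the calcium buffer calbindin of dorsal nigral and tegmental neurons, and Slc17a6, the vesicular glutamate transporter of neurons that co-release glutamate. Nuclei with at least 2 tags of a gene in 5000 UMIs were called high and nuclei with 0 tags low. Over all Ddc nuclei Sox6 read 430 CPM in wt and 429 CPM in mutant, Calb1 81.0 and 54.1 CPM, and Slc17a6 25.2 and 35.2 CPM. These classes are ranges of a tag count, and many nuclei that hold a transcript fall in the low class.

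Slc6a3 was higher in Sox6-high than in Sox6-low nuclei of both libraries. It read 613 CPM in 501 wt Sox6-high and 364 CPM in 594 wt Sox6-low nuclei, a ratio of 1.68 (1.63 to 1.74). In mutant nuclei it read 219 CPM in 1140 high and 137 CPM in 1323 low nuclei, a ratio of 1.60 (1.53 to 1.66). Slc6a3 was thus past 1.5-fold in both libraries, where 1.98% of 13457 genes in wt and 1.40% of 14893 genes in mutant stood. When Ddc had to reach 5 per 10000, the log2 ratio was 0.574 in wt and 0.506 in mutant, short of 1.5-fold in both. The level was higher at each step of Sox6, from 364 over 431 and 564 to 650 CPM in wt and from 137 over 194 and 209 to 227 CPM in mutant. Nuclei with 0 Slc6a3 UMIs made up 3.59% of the Sox6-high and 16.5% of the Sox6-low wt nuclei, and 8.25% and 37.2% in the mutant. The Sox6-high nuclei were deeper, with a median of 30345 against 22347 UMIs in wt and 23951 against 16667 in mutant, so these shares were not taken at equal depth.

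Slc18a2 differed less by Sox6, and in opposite directions. It read 839 CPM in wt Sox6-high and 700 CPM in wt Sox6-low nuclei, a ratio of 1.20 (1.17 to 1.23). In the mutant it read 280 CPM in high and 309 CPM in low nuclei, a ratio of 0.905 (0.878 to 0.932). Th did not follow Sox6 in either library, at ratios of 0.977 (0.929 to 1.03) and 0.981 (0.923 to 1.04), whereas Ddc was higher in Sox6-high nuclei of both, at 1.22 (1.19 to 1.25) in wt and 1.10 (1.08 to 1.12) in mutant. Between libraries, Slc18a2 was 3.001-fold lower in mutant than in wt Sox6-high nuclei (2.92 to 3.08) and 2.26-fold lower in Sox6-low nuclei (2.20 to 2.33). For Slc6a3 these folds were 2.80 (2.72 to 2.89) and 2.66 (2.55 to 2.77). The difference of the folds has no test with 1 library per genotype.

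Calb1 gave the reverse pattern for Slc6a3. It read 335 CPM in 134 Calb1-high and 522 CPM in 905 Calb1-low wt nuclei, a ratio of 0.643 (0.604 to 0.683). In the mutant it read 141 CPM in 189 high and 190 CPM in 2252 low nuclei, a ratio of 0.743 (0.680 to 0.811). The wt value passed 1.5-fold lower, where 2.17% of 13411 genes stood, and the mutant value did not, where 1.70% of 14933 genes did. These calls depend on how the classes are drawn. With another random draw of the tags the log2 ratio was -0.543 in wt, short of 1.5-fold, and -0.615 in mutant, past it before the pseudocount. With high taken from 1 tag the wt value was -0.410, and with classes from all UMIs the mutant value was -0.819. Slc18a2 again pointed opposite ways, from 776 CPM in low to 709 CPM in high wt nuclei, a ratio of 0.914 (0.875 to 0.954), and from 286 to 356 CPM in mutant nuclei, a ratio of 1.25 (1.18 to 1.32). Slc18a2 was 1.99-fold lower in mutant than in wt Calb1-high nuclei (1.86 to 2.13) and 2.71-fold lower in Calb1-low nuclei (2.66 to 2.77).

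Slc17a6-high nuclei had the lowest Slc6a3 of the classes in both libraries, but they were few. In 28 wt nuclei Slc6a3 read 145 CPM against 512 CPM in 1109 low nuclei, a ratio of 0.283 (0.232 to 0.342), and Slc18a2 360 against 793 CPM, a ratio of 0.454 (0.401 to 0.513). Both passed 1.5-fold lower, where 7.24% of 13611 genes stood. In 87 mutant nuclei Slc6a3 read 103 CPM against 194 CPM in 2465 low nuclei, a ratio of 0.534 (0.461 to 0.615), past 1.5-fold lower with 3.04% of 14978 genes. Mutant Slc18a2 read 315 and 298 CPM, a ratio of 1.05 (0.970 to 1.14), and its sign turned in 4 of 9 other settings and was at 0.00 on the log2 scale in another. Another random draw of the tags moved the wt log2 ratios from -1.82 to -1.38 for Slc6a3 and from -1.14 to -0.67 for Slc18a2, more than the counting interval allows. In Slc17a6-high nuclei the libraries lay nearest to each other, with Slc6a3 1.40-fold lower in the mutant (1.096 to 1.78) and Slc18a2 1.15-fold lower (0.987 to 1.33). Ddc was also lower in Slc17a6-high than in low nuclei, at a ratio of 0.530 (0.480 to 0.585) in wt and 0.826 (0.780 to 0.873) in mutant. Between libraries, Ddc of Slc17a6-high nuclei was higher in the mutant, at a ratio of 1.20 (1.08 to 1.35), so this class was not matched on Ddc.

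**Figure D3:**
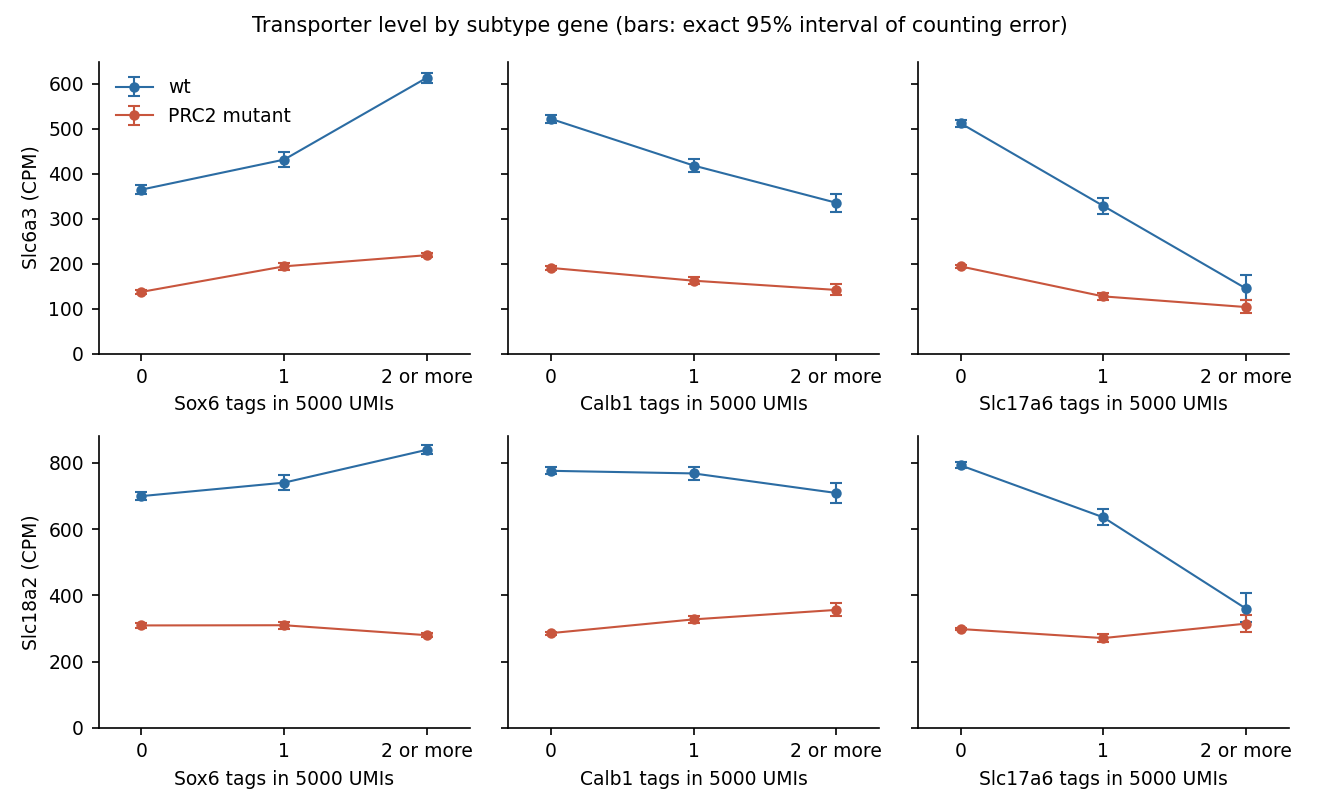
Slc6a3 (top) and Slc18a2 (bottom) in CPM, by tags of Sox6, Calb1 and Slc17a6 in 5000 UMIs (horizontal axes), in wt (blue) and PRC2 mutant (red) Ddc nuclei, with exact 95% intervals for counting error. Slc6a3 rises with Sox6 and falls with Calb1 and Slc17a6 in both libraries, and Slc18a2 of the mutant lies between 271 and 356 CPM in the classes plotted (0, 1 and 2 or more tags).

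Over all mutant Ddc nuclei, the load of the derepressed regulators Hoxc4 and Pax3 barely separated nuclei by their transporters. Slc6a3 read 190 CPM in 350 nuclei with at least 2 Hoxc4 tags and 182 CPM in 1946 nuclei with 0, a ratio of 1.05 (0.993 to 1.10). Slc18a2 read 291 and 304 CPM, a ratio of 0.957 (0.919 to 0.997). For Pax3, 305 loaded and 2077 unloaded nuclei gave 186 and 182 CPM of Slc6a3, a ratio of 1.02 (0.964 to 1.08), and 283 and 303 CPM of Slc18a2, a ratio of 0.933 (0.892 to 0.976). Neither transporter passed 1.5-fold lower in either split, where 1.88% of 14667 genes did for Hoxc4 and 1.80% of 14757 genes for Pax3. The Slc6a3 ratios turned below 1 when Ddc had to reach 5 per 10000, at a log2 of -0.05 for Hoxc4 and -0.07 for Pax3. Within Sox6 classes, Slc6a3 went opposite ways with the summed tags of Hoxc4 and Pax3. In Sox6-high mutant nuclei it read 243 CPM in 434 nuclei with 0 tags and 208 CPM in 430 with at least 2. In Sox6-low mutant nuclei it read 131 CPM in 895 and 158 CPM in 215. Slc18a2 read 290 and 281 CPM in the Sox6-high sets, and 326 and 294 CPM in the Sox6-low sets.

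Mutant nuclei without load still had low transporters. Nuclei with 0 tags of Hoxc4 had 2.68-fold less Slc6a3 than wt Ddc nuclei and 2.53-fold less Slc18a2. A thinned count of 0 can hide load, so deep nuclei were read as well. The 191 mutant nuclei of at least 20000 UMIs with no Hoxc4 or Pax3 UMI at all had 161 CPM of Slc6a3 against 506 CPM in 828 wt nuclei of that depth, 3.14-fold lower (2.93 to 3.35). Their Slc18a2 was 308 against 782 CPM, 2.54-fold lower (2.42 to 2.67). The 547 deep mutant nuclei with at least 10 UMIs of the pair had 182 CPM of Slc6a3 and 281 CPM of Slc18a2, both 2.78-fold lower than wt (2.69 to 2.87 and 2.71 to 2.85). Ddc was 1.44-fold lower than in deep wt nuclei (1.40 to 1.49) in the 191 and 1.34-fold lower (1.31 to 1.36) in the 547. Neither deep set was thus matched to wt on Ddc.

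A broader load, the sum over 47 regulators (31 Hox genes and 16 others), gave steps of opposite direction for the transporters. Slc6a3 went from 146 CPM in 333 mutant nuclei with 0 tags over 174 and 191 to 188 CPM in 1705 nuclei with at least 4. Slc18a2 went from 335 over 341 and 308 to 282 CPM. In the 333 nuclei without a tag 47.1% had no Slc6a3 UMI, against 17.3% of nuclei with at least 2 tags, at median depths of 14677 and 21060.5 UMIs. In wt, 26 nuclei with at least 2 tags of these regulators had 291 CPM of Slc6a3 and 567 CPM of Slc18a2, against 503 and 789 CPM in 1126 nuclei with 0. In these 26 nuclei Ddc was lower as well, at a ratio of 0.652 (0.598 to 0.709). Th was lower at 0.744 (0.611 to 0.899) and Nr4a2 at 0.709 (0.549 to 0.900). Across the mutant steps Ddc went from 688 over 791 and 780 to 792 CPM. The broad load classes of either library were thus not matched on Ddc.

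**Figure D4:**
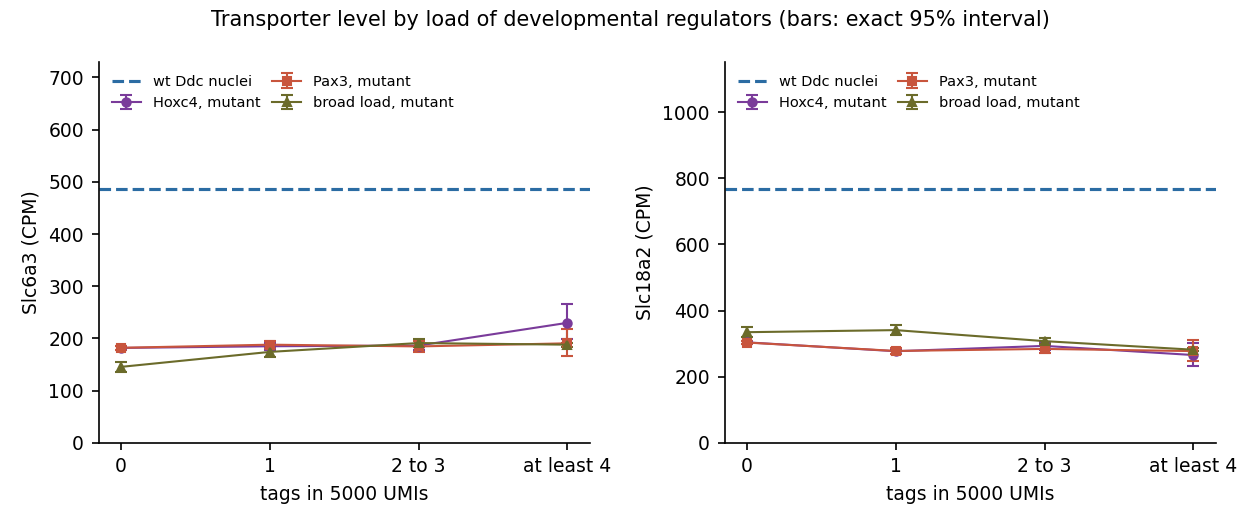
Slc6a3 (left) and Slc18a2 (right) in CPM in mutant Ddc nuclei by tags in 5000 UMIs of Hoxc4, Pax3 and the broad load of 47 regulators, with exact 95% intervals; the dashed line is the level of all wt Ddc nuclei. Every mutant step stays under the wt level of 487 CPM for Slc6a3 and 769 CPM for Slc18a2.

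When nuclei were matched on Ddc, both transporters remained lower in the mutant, and the gap grew with Ddc. In nuclei with 2 to 5 Ddc UMIs per 10000 (195 wt, 730 mutant) Slc6a3 read 168 CPM in wt and 116 CPM in mutant, 1.45-fold lower (1.34 to 1.57), and Slc18a2 395 and 223 CPM, 1.77-fold lower (1.68 to 1.87). In nuclei with 5 to 10 (459 and 1303) the folds were 2.24 (2.16 to 2.32) and 2.35 (2.29 to 2.41). In nuclei with 10 or more (607 and 854) they were 2.53 (2.44 to 2.61) and 2.56 (2.49 to 2.64). Ddc itself differed by at most 1.07-fold within these bands, against 1.29-fold over all Ddc nuclei.

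The pools, each of 1 male and 2 females, can be split in part by sex through Xist and Y-linked tags. Ddc nuclei with both kinds of tag, 398 in wt (31.6%) and 608 in mutant (21.1%), fell in neither set. The tags thus do not separate the mice cleanly. In nuclei with only Y-linked tags (148 wt, 279 mutant) Slc6a3 read 379 CPM in wt and 187 CPM in mutant, 2.03-fold lower (1.84 to 2.25), and Slc18a2 641 and 282 CPM, 2.27-fold lower (2.10 to 2.46). In nuclei with only Xist tags (701 and 1977) Slc6a3 read 510 and 187 CPM, 2.73-fold lower (2.65 to 2.81), and Slc18a2 812 and 306 CPM, 2.66-fold lower (2.60 to 2.72). Both transporters were thus lower in the mutant in either set. The male sets were shallow, at median depths of 15798 and 9659 UMIs, and a set by tag rates gave 2.24-fold for Slc6a3 and 2.53-fold for Slc18a2. Whether the folds differ by sex was not tested.

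Outside the Ddc nuclei both transporters were low. In the remaining 511 wt and 1081 mutant nuclei Slc6a3 read 28.9 and 20.49 CPM, 1.41-fold lower in the mutant (1.18 to 1.68), and Slc18a2 122 and 67.9 CPM, 1.79-fold lower (1.64 to 1.96). Of these, 44 wt and 103 mutant nuclei met the Ddc rate but had under 5000 UMIs, and held Slc6a3 at 204 and 142 CPM. GABA-marked nuclei (95 and 270) had at least 5000 UMIs and at least 2 UMIs per 10000 of Gad1, Gad2 and Slc32a1 together. They passed no glial or vascular gate and held under 2 per 10000 of Slc17a6, Slc17a7 and Slc17a8 together. Their Slc6a3 read 7.67 CPM (4.29 to 12.6) and 16.6 CPM (13.5 to 20.3), from 15 and 98 UMIs. Their Slc18a2 read 81.8 CPM (69.6 to 95.5) and 69.7 CPM (63.1 to 76.8). Glutamate-marked nuclei (38 and 135), taken by the same rule with the gene sets exchanged, had 18.1 and 8.38 CPM of Slc6a3 and 92.7 and 43.1 CPM of Slc18a2.

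Free RNA in the droplets can give a tag to a nucleus that does not transcribe the gene, so marked nuclei outside the Ddc nuclei are given beside them. GABA-marked mutant nuclei cannot be assumed to lack the transporters. The gate marker Gad1 itself had 171 UMIs in wt and 6955 UMIs in mutant Ddc nuclei, so a mutant dopamine nucleus under the Ddc cut could pass this gate. At 2000 UMIs, 70.7% of wt and 42.8% of mutant Ddc nuclei held a Slc18a2 tag. In GABA-marked nuclei 19 of 95 wt (12.5 to 29.5%) and 44 of 270 mutant nuclei had one, the latter 16.3% (12.1 to 21.3). For Slc6a3, 52.9% of wt and 28.5% of mutant Ddc nuclei held one. Among 95 wt GABA-marked nuclei 0 did, a count that allows a share of up to 3.16% when 3 nuclei are taken as the limit and of up to 3.81% by the exact interval used for the other shares. Among the mutant ones 2.96% held one (1.29 to 5.75). Median depths were 18602 and 18023.5 UMIs in the GABA-marked nuclei. In oligodendrocyte-marked nuclei, which should lack both genes, Slc6a3 read 19.3 CPM in wt and 12.03 CPM in mutant, from 7 and 6 UMIs, and Slc18a2 93.7 and 18.0 CPM, from 34 and 9 UMIs, at median depths of 3601 and 3696 UMIs. The wt set also held the neuronal gene Snap25 at 311 CPM, in 29.3% of its nuclei, against 841 CPM in wt Ddc nuclei. Its Ddc read 66.1 CPM. These nuclei were thus not free of neuronal tags, and no doublets were called. At 2000 UMIs, 8.51% of 47 wt (2.37 to 20.4) and 3.57% of 56 mutant oligodendrocyte-marked nuclei (0.435 to 12.3) had a Slc18a2 tag. The Slc6a3 levels of GABA-marked nuclei in both libraries and their Slc18a2 level in wt were within or under the intervals of the oligodendrocyte-marked nuclei. For Slc6a3 these intervals rest on 7 and 6 UMIs and are wide. The mutant Slc18a2 level of GABA-marked nuclei, 69.7 CPM, was above the interval of mutant oligodendrocyte-marked nuclei (8.25 to 34.3 CPM). Whether any of these levels is background was not tested. These marker gates are ranges of a summed score, set after the data were seen.

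Both transporters stood among the most lowered members of dopamine handling. Of 16 measured genes of this list, 7 were at least 1.5-fold lower and 0 higher, with a median log2 ratio of -0.49 against 0.02 over all genes, all with 5 CPM added. Over all 16368 genes, 232 (1.42%) were at least 1.5-fold lower and 323 (1.97%) higher. Beside the transporters these were Th, at 176 CPM in wt and 72.0 CPM in mutant, 2.45-fold lower (2.36 to 2.54), and Sv2c, a vesicle glycoprotein of dopamine terminals, 2.35-fold lower (2.31 to 2.40). Aldh1a1, which oxidises the dopamine aldehyde, was 2.01-fold lower (1.94 to 2.08), Gch1, the first enzyme of tetrahydrobiopterin synthesis, 2.00-fold (1.85 to 2.16), and Slc10a4, a vesicular orphan transporter, 1.88-fold (1.76 to 2.01). Short of 1.5-fold with 5 CPM added, here given without it, were Maoa (log2 -0.59), Drd2, the dopamine autoreceptor (-0.47), Maob (-0.44), Ddc (-0.36), Pcbd1 (-0.20), Qdpr (0.06), Pts (0.14), Aldh2 (0.30) and Spr (0.73, from 63 and 187 UMIs). Gchfr had 1 and 11 UMIs and was not measured.

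Other carriers gave no such decrease. Of 5 measured monoamine carriers, 0 passed 1.5-fold in either direction with the pseudocount. Without it, Slc18a1, the vesicular transporter of endocrine cells, had a log2 ratio of 0.14, Slc18b1, a vesicular polyamine transporter, 0.35, Slc29a4, the plasma membrane monoamine transporter, 0.07 and Slc47a1 -0.10. The organic cation transporter Slc22a3 (67 wt and 276 mutant UMIs) had 1.20, at levels under 5 CPM. In wt, Slc47a1 read 0.786 CPM and Slc22a3 1.70 CPM, so with 5 CPM added neither could have been called lower. Slc6a2 and Slc6a4, the noradrenaline and serotonin transporters, had 5 and 8 UMIs in wt and 7 and 14 UMIs in mutant Ddc nuclei, and Slc22a2 had 2 and 6. Of 15 measured SLC6 family genes, Slc6a3 alone was lower and Slc6a5, the glycine transporter of inhibitory neurons, alone was higher, from 5 to 5053 UMIs. Of 5 vesicular transporters for other transmitters, Slc32a1, which loads GABA and glycine, was higher, at 1.19 CPM in wt and 6.45 CPM in mutant.

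Genes whose products work with the transporters were mostly level. Of 16 subunits of the vesicular proton pump that powers monoamine loading and of 19 proteins reported to bind the dopamine transporter, 0 passed 1.5-fold in either direction, with median log2 ratios of 0.10 and 0.06 with 5 CPM added. Of 20 synaptic vesicle genes 2 were lower, Sv2c and Cplx1, a regulator of fusion (2.34-fold, 2.25 to 2.43). Of 14 transcription factors of midbrain dopamine neurons 2 were lower, En1 (2.63-fold, 2.48 to 2.78) and Pitx3 (2.92-fold, 2.59 to 3.30), and of 14 pan-neuronal genes 0. Within the mutant, 0 of the 16 dopamine handling genes passed 1.5-fold with Hoxc4 or with Pax3 load. With the summed tags of Hoxc4 and Pax3, 1 was higher and 1 lower. With the broad load 3 were higher and 1 lower. These last counts have no share of all genes beside them.

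**Figure D5:**
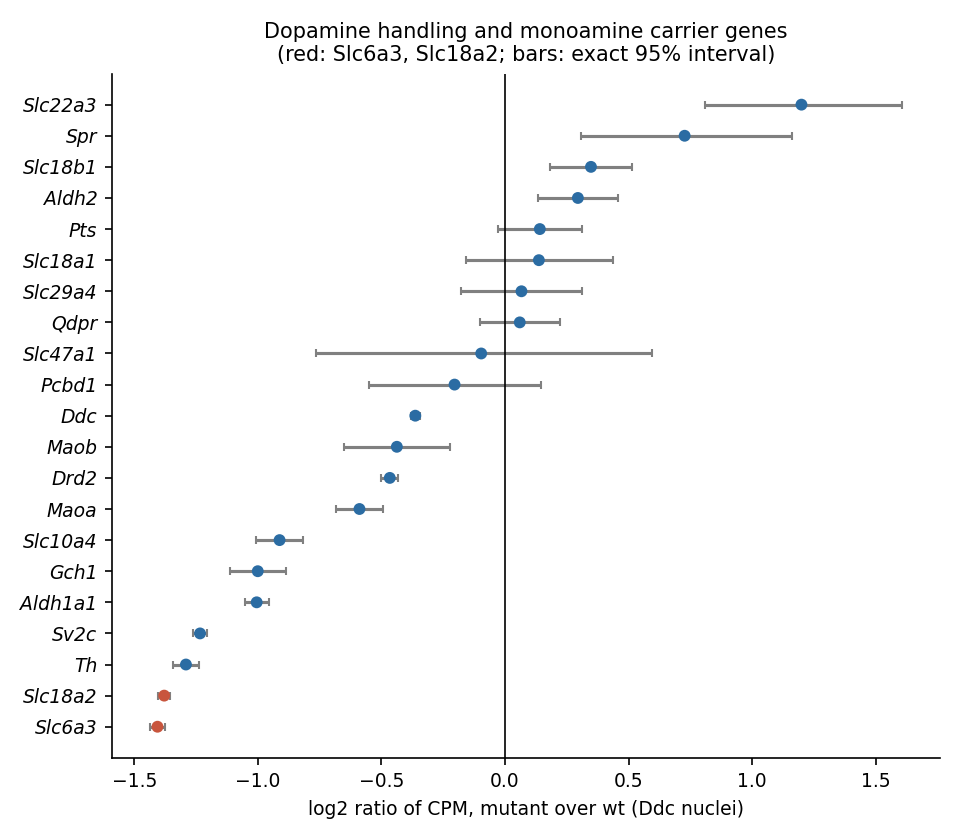
Log2 ratio of CPM, PRC2 mutant over wt Ddc nuclei (horizontal axis), of the measured dopamine handling and monoamine carrier genes, with exact 95% intervals for counting error. Slc6a3 and Slc18a2 (red) have the lowest values, at -1.41 and -1.38, followed by Th at -1.29.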

How the data were processed

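The assay was single-nucleus RNA sequencing with 10x 3' v3 chemistry on sorted midbrain nuclei, per the labels' protocols. Cell Ranger 3.1.0 and mm10 appear, without roles, in the submitters' processing notes. The authors deposited raw counts, a matrix of UMIs for 23481 genes in 5740 nuclei. Lanes cannot be separated in it, and the sources used here name no filter on nuclei or genes. Depth ran from 621 to 127151 UMIs per nucleus. Genotype came from the column names.

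Counts were summed over nuclei and divided by their total to give CPM. Ratios carry no pseudocount; genes were called with 5 CPM added, given at least 50 UMIs, at 2-fold, or 1.5-fold for lists and splits. Intervals are exact (95%, Poisson, binomial or binomial split), cover counting error only and take nuclei as alike. Nuclei were thinned without replacement to 5000 UMIs for classes, shares and likeness, and to 2000 UMIs for shares across classes. Where 0 nuclei had a tag, 3 nuclei give the share allowed. Python 3.11.15, numpy 2.4.6, scipy 1.17.1, pandas 2.3.3 and matplotlib 3.10.9 were used, and the scripts were tested on simulated data. No clustering and no doublet caller was run; alternatives left out the deepest 5% of nuclei or those with glial tags. Other alternatives changed the nuclei, the scaling, the pseudocount, the count minimum, the random draw and the classes.

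The transporters, gene lists and thresholds were chosen with earlier results of these data known. Genes named are the transporters, the dopamine handling and monoamine carrier lists, the splitting genes and the 5 genes most like each transporter in wt. Of other lists, up to 2 members per direction with the largest changes past 1.5-fold are named. Eed, Gm29261, Xist and Snap25 were added as checks, and the genes of the GABA and glutamate gates to define them. Some members of the lists are not reported here.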

Additional observations from a re-analysis of the deposited data

Results flagged for a closer look

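Slc18a2 is listed here because it pointed opposite ways in the libraries under the same split, with counting intervals that did not include 0. From Sox6-low to Sox6-high nuclei its log2 ratio was 0.263 in wt and -0.144 in the mutant. From Calb1-low to Calb1-high nuclei it was -0.130 in wt and 0.316 in the mutant. Under the alternatives the wt values ran from 0.139 to 0.335 for Sox6 and from -0.180 to -0.049 for Calb1, and the mutant values from -0.268 to -0.073 and from 0.156 to 0.396, so the signs held in all of them. With nuclei weighted equally, the wt value by Calb1 was -0.107 with an interval from -0.248 to 0.032, which includes 0. With 1 library per genotype the difference was not tested. Beside it, Slc6a3 kept 1 direction in both libraries for each gene, and Nr4a2, a transcription factor of dopamine neurons, had Sox6 ratios of 1.05 (0.985 to 1.12) in wt and 0.776 (0.735 to 0.819) in the mutant.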

How the results depend on the processing

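Across 201 alternatives for 26 values, 131 stayed within the counting interval (for counts of genes, within 1.5 times) and 70 did not. Of 168 alternative log2 ratios 7 had another sign or 0: 5 for mutant Slc18a2 by Slc17a6 and the Slc6a3 ratios by Hoxc4 and Pax3. The log2 ratio of mutant to wt ran from -1.497 to -1.255 for Slc6a3 and from -1.441 to -1.261 for Slc18a2. The largest move of any log2 ratio was 1.045. Causes were not tested. The 1900 UMI draw, the equal weighting of nuclei, the sexes by tag rate and the Ddc minimum of 10 were chosen after seeing the data. No paired analysis was possible because each genotype is 1 library, whose lanes are not separate in the table; for the same reason no replicate could be left out. Depth limits the shares with a tag, and 28 wt Slc17a6-high nuclei limit that split.

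For mutant over wt, Slc6a3 was -1.372 at a Ddc minimum of 5 and -1.336 at 10. Without nuclei with glial tags it was -1.497 (Slc18a2 -1.441), with median ratio scaling by 1.0383 it was -1.461 (-1.434), and as a mean over nuclei -1.255 (-1.261). Slc18a2 was -1.352 without the deepest 5% and -1.340 in male nuclei by tag rate. A pseudocount of 1 CPM gave 146 genes at least 2-fold lower and 349 higher, against 49 and 156. The correlation in wt was 0.641 at a Ddc minimum of 1, 0.493 at 5, 0.384 at 5000 UMIs, 0.158 at 1900 UMIs and 0.547 as Spearman's rho, and in the mutant 0.290, 0.172 and 0.136 for the first 3 of these.

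By Sox6, wt Slc6a3 was 0.840 at a Ddc minimum of 1, 0.574 at 5, 0.853 with another draw, 0.640 with high from 1 tag, 1.039 with classes from all UMIs and 0.891 with equal weights. Mutant Slc6a3 was 0.767, 0.506, 0.789 without the deepest, 0.844 without glial tags, 0.916 from all UMIs and 0.767 with equal weights. Slc18a2 in wt was 0.335, 0.139, 0.220 from 1 tag, 0.320 from all UMIs and 0.305 with equal weights, and in the mutant -0.073, -0.268 and, without glial tags, -0.079.

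By Calb1, Slc6a3 with another draw, from 1 tag and from all UMIs was -0.543, -0.410 and -0.848 in wt and -0.615, -0.283 and -0.819 in the mutant. Slc18a2 was -0.049 from 1 tag in wt, and 0.156 with another draw and 0.229 from 1 tag in the mutant. By Slc17a6, with another draw and from 1 tag, wt Slc6a3 was -1.383 and -0.776 and wt Slc18a2 -0.670 and -0.422. Mutant Slc6a3 was -0.660 from 1 tag, -1.637 from all UMIs and -1.228 with equal weights. Mutant Slc18a2 was 0.394 at a Ddc minimum of 5, -0.230 with another draw, -0.096 from 1 tag, -0.118 from all UMIs, -0.021 at a Ddc minimum of 1 and 0.000 without glial tags.

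By Hoxc4, Slc6a3 was 0.137 at a Ddc minimum of 1, -0.045 at 5, 0.138 without the deepest and 0.215 with equal weights. Slc18a2 was -0.004 without glial tags, -0.283 from all UMIs and -0.152 with equal weights. By Pax3, Slc6a3 was -0.071 at a Ddc minimum of 5, and Slc18a2 -0.180 from all UMIs and -0.349 with equal weights.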
